A study of Rattus norvegicus with 16 samples.

Results

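The mRNAs of Cdk5, of its activators Cdk5r1 (p35) and Cdk5r2 (p39), of tau (Mapt) and of the GSK3 kinases Gsk3a and Gsk3b were followed in the hippocampus of injured and drug-treated rats. Every non-control probe whose gene name in the scanner files is one of these 6 symbols was taken. This gave 6 of 26583 gene names and 7 of 30367 probes, 1 for each gene and 2 for Mapt. The set had been chosen by its TBI+JM6 against TBI values, which were known when it was proposed, so comparisons of the drug groups with TBI are given as a description, with no test. In those comparisons the signal of Cdk5r1, Cdk5r2 and Gsk3a was higher in every drug-treated than in every TBI rat, as was that of Cdk5, Gsk3b and 1 of the Mapt probes. The drug arrays were scanned apart from the TBI arrays, and 72.8% of all tested probes in TBI+JM6, 62.3% in TBI+PMI and 84.6% in TBI+E33 were higher than in TBI with no overlap. In the comparisons that were tested, Cdk5, Cdk5r1, Cdk5r2 and Gsk3a were lower in TBI than in Sham in the fit to all arrays. Over all tested probes 6.46% were called lower there, and several other settings took the calls of these genes away. For the same genes both Sham arrays were also above all Naive arrays, as for 25.1% of all probes. No member passed the test between TBI and Naive in the fit to all arrays.

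Cdk5 is a serine/threonine kinase of postmitotic neurons that is inactive by itself and needs p35 or p39. Calpain cleaves p35 to the more stable p25 when calcium rises in injured neurons, so that much of the control of this kinase lies in its proteins, which mRNA arrays do not measure. Cdk5 and GSK3 both phosphorylate tau, a microtubule-binding protein of axons, and GSK3 is itself held in check when Akt phosphorylates it.

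Hippocampal RNA of 16 Sprague-Dawley rats had been hybridized, 1 rat per array, to single-colour Agilent arrays. Naive rats (n = 3) had no injury and no treatment, and Sham rats (n = 2) were anesthetized and prepared for surgery but not injured. TBI rats (n = 3) received a severe fluid percussion injury, and the remaining groups received the same injury followed by PMI (n = 3) or JM6 (n = 3) by oral gavage, or E33, an estradiol treatment (n = 2) that the labels give as subcutaneous. Tissue was taken at 24 h, the labels name no vehicle for the TBI rats, and the methods give adult males. The whole hippocampus was used, so a lower signal may come from fewer cells of a type or from less RNA per cell, which cannot be told apart here.

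Scanning of the 4 slides, each with 4 arrays, took place in 2 sessions. One held the Naive, Sham and TBI arrays, with 16274 to 18239 probes well above background per array, and the other all drug arrays, with 20256 to 24979. Drug treatment and scan session therefore cannot be told apart wherever a drug group is set against rats without a drug. A number ends the deposited name of each array, and its meaning is not given in the sources used here. It runs from 1 to 8 for the Naive and TBI arrays and for TBI+PMI 1 and 2, and is 230 or above for the Sham, TBI+JM6 and TBI+E33 arrays and for TBI+PMI 3. Of 10 neuron markers, 9 or 10 were above background on every array, although Rbfox3 was above background on 7 of 16. Choroid plexus markers had a summed signal of 76.4, 121 and 150 times the scaling level on Naive 2, Sham 1 and TBI+PMI 1, and of 0.188 to 7.55 on the other arrays, and their part in the results was not tested.

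The probes are 60 bases long, and their sequences show what each signal can distinguish. The Gsk3a probe lies on chromosome 1 of rn4 from 80505929 to 80505988 and the Gsk3b probe on chromosome 11 from 64302294 to 64302353, both on the minus strand. They read the same stretch of the paralogues and match at 37 of 58 aligned bases (63.8%), shown in capitals.
Gsk3a: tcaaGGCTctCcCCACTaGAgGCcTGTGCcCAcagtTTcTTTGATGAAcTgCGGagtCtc
Gsk3b: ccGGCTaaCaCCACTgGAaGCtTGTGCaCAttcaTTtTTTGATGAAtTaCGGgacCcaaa
The differences are spread along the whole stretch. The Cdk5 probe is listed on chromosome 4 from 6120599 to 6120761, a span of 163 bases for a probe of 60, so it covers 2 or more separate genomic pieces. One Mapt probe, A_64_P034774, lies on chromosome 10 from 93504770 to 93504829, and the other, A_64_P034769, starts 3906 bases further on, from 93508676 to 93508735.
Cdk5: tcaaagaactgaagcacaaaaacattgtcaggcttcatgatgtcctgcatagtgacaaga
Mapt A_64_P034774: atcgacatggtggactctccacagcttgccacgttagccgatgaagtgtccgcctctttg
The Cdk5r1 probe (chromosome 10, 68716958 to 68717017) and the Cdk5r2 probe (chromosome 9, 74193251 to 74193310) are not shown. All 7 probes carry a transcript accession that maps to the same current symbol. The GC content of the probes ran from 30.0% for Cdk5r1 and 35.0% for Mapt A_64_P034769 to 55.0% for Gsk3a and Mapt A_64_P034774.

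The promoters of Cdk5r2 and Gsk3a are shown because these genes belong to the members with the widest differences below and because their windows lie outside the annotated gene. The 250 bases before the start come from RefSeq (GRCr8), at chr9:83864672-83864921 on the plus strand for Cdk5r2 and chr1:89953515-89953764 on the minus strand for Gsk3a. Capitals mark GGGCGG or its reverse complement CCGCCC, the core of a GC box.
Cdk5r2: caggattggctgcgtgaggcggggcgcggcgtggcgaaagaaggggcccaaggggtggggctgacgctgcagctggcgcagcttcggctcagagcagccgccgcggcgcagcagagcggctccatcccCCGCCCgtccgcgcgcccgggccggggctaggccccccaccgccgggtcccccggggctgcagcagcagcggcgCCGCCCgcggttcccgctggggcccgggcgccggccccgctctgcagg
Gsk3a: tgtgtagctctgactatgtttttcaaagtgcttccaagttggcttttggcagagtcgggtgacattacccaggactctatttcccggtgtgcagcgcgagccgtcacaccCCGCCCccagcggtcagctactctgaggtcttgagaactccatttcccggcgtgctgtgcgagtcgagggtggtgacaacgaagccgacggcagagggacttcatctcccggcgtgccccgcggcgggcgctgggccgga
This motif occurred 2 times in the window of Cdk5r2, 1 time each in those of Gsk3a, Cdk5 and Cdk5r1 and 0 times in that of Gsk3b, and in 30.5% of 33469 windows of the same length. The windows of Cdk5, Cdk5r1 and Gsk3b overlap the annotated gene, so their counts are not those of sequence lying wholly before it. GC content was 80.4% in the windows of Cdk5r1 and Cdk5r2 and 34.4% in that of Gsk3b, and the median over all windows was 51.2%. No window of the 5 genes held TGACGTCA, a cyclic AMP response element, which 1.6% of all windows did. No entry for Mapt was found.

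All values below are log2 of the signal after division by the array's own scaling level, which is the 75th percentile of its above-background probes, so 0 is that level and a value says nothing about one probe against another. Cdk5r1 encodes p35, the main activator of CDK5 in the forebrain. Its signal was -5.10, -4.37 and -4.87 in Naive 1 to 3, -3.74 and -4.19 in Sham, and -4.97, -5.84 and -5.43 in TBI. It was -3.18, -3.11 and -2.76 in TBI+PMI, -2.40, -2.56 and -1.86 in TBI+JM6, and -2.71 and -2.50 in TBI+E33. The probe is dim: it was well above background on 15 of 16 arrays, and not on TBI 2, whose value therefore rests partly on background. From low to high the group means were -5.41 ± 0.44 in TBI (SD, n = 3), -4.78 ± 0.37 in Naive (n = 3), -3.96 ± 0.31 in Sham (n = 2), -3.02 ± 0.23 in TBI+PMI (n = 3), -2.60 ± 0.15 in TBI+E33 (n = 2) and -2.27 ± 0.37 in TBI+JM6 (n = 3). TBI and Naive overlapped, as did TBI+E33 and TBI+JM6. Sham lay above Naive with no overlap, as for 25.1% of all probes, and TBI+E33 above TBI+PMI, as for 39.4%.

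Cdk5r2 encodes p39, the second activator. Its signal was -2.11, -2.61 and -2.53 in Naive, -0.58 and 0.23 in Sham, and -1.84, -2.87 and -2.73 in TBI. It was -1.46, -1.59 and -0.29 in TBI+PMI, -0.45, -0.37 and 0.27 in TBI+JM6, and -0.22 and -0.27 in TBI+E33. The 16 arrays fell into a low set from -2.87 to -1.46 and a high set from -0.58 to 0.27. The low set was the 8 arrays numbered 1 to 8 and the high set the 8 arrays numbered 230 or above, whichever group or session they belonged to. The share of all probes that split in this way was not computed. TBI+PMI held both and had the widest spread of any group (-1.11 ± 0.71, SD, n = 3).

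Cdk5, the kinase itself, moved over a smaller range. Its probe was printed 10 times on each array and all 10 spots were above background on all 16. The signal was -1.28, -1.12 and -1.44 in Naive, -0.73 and -0.59 in Sham, and -1.17, -1.53 and -1.42 in TBI. Naive and TBI overlapped. Both Sham arrays were above all Naive arrays, as for 25.1% of all probes, and above all TBI arrays, as for 24.2%. In TBI+PMI it was -0.32, -0.41 and -0.58, in TBI+JM6 -0.40, -0.29 and -0.22, and in TBI+E33 -0.47 and -0.39. All 8 drug arrays were above the Sham mean of -0.66 ± 0.10 (SD, n = 2).

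Mapt, the substrate, had a range over the 16 arrays of 1.16 for one probe and 1.06 for the other. Probe A_64_P034774 read 3.56, 3.13 and 3.18 in Naive, 2.62 and 2.84 in Sham, and 3.24, 2.42 and 2.40 in TBI, where replicate 1 stood apart from the other two. It read 3.11, 3.13 and 2.81 in TBI+PMI, 2.89, 2.62 and 2.92 in TBI+JM6, and 2.62 and 3.18 in TBI+E33. All 6 groups lay between 2.40 and 3.56, and each drug group overlapped TBI. Probe A_64_P034769 lay between 1.24 and 2.30, and its means were 1.66 ± 0.19 in Naive (SD, n = 2), 1.74 ± 0.07 in Sham, 1.44 ± 0.25 in TBI, 1.90 ± 0.10 in TBI+PMI, 1.93 ± 0.07 in TBI+JM6 and 2.08 ± 0.31 in TBI+E33. On Naive 2 the spot of this probe had been marked as an outlier by the scanner software and was left out, so its comparisons with Naive rest on 2 Naive arrays. The probes also differed in direction between Sham and Naive, with 0.09 for A_64_P034769 and -0.56 for A_64_P034774. The difference between the probes was not tested.

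Gsk3a and Gsk3b, the tau kinases, differed in where the Sham arrays stood among the untreated groups. Gsk3a read -4.03, -4.31 and -4.19 in Naive, -3.80 and -3.06 in Sham, and -4.19, -5.19 and -4.92 in TBI. Both Sham arrays were above all Naive arrays, as for 25.1% of all probes, and above all TBI arrays, as for 24.2%. Gsk3b, with 10 spots per array, read -2.38, -2.60 and -2.43 in Naive, -2.91 and -2.81 in Sham, and -2.52, -2.63 and -2.67 in TBI, so that Sham was the lowest of the 3. Its Sham arrays were below all Naive arrays, as for 14.5% of all probes, and below all TBI arrays, as for 17.6%. Among the untreated groups Gsk3a was called only in TBI versus Sham in the fit to all arrays, and Gsk3b in no comparison. In the drug groups both were higher: Gsk3a lay between -3.32 and -2.65 and Gsk3b between -1.88 and -1.08. Across the 8 drug arrays the Pearson correlation of Gsk3a with Gsk3b was 0.82 and across the 8 other arrays it was -0.29. These correlations share the scaling of each array and are given as a description.

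**Figure D1:**
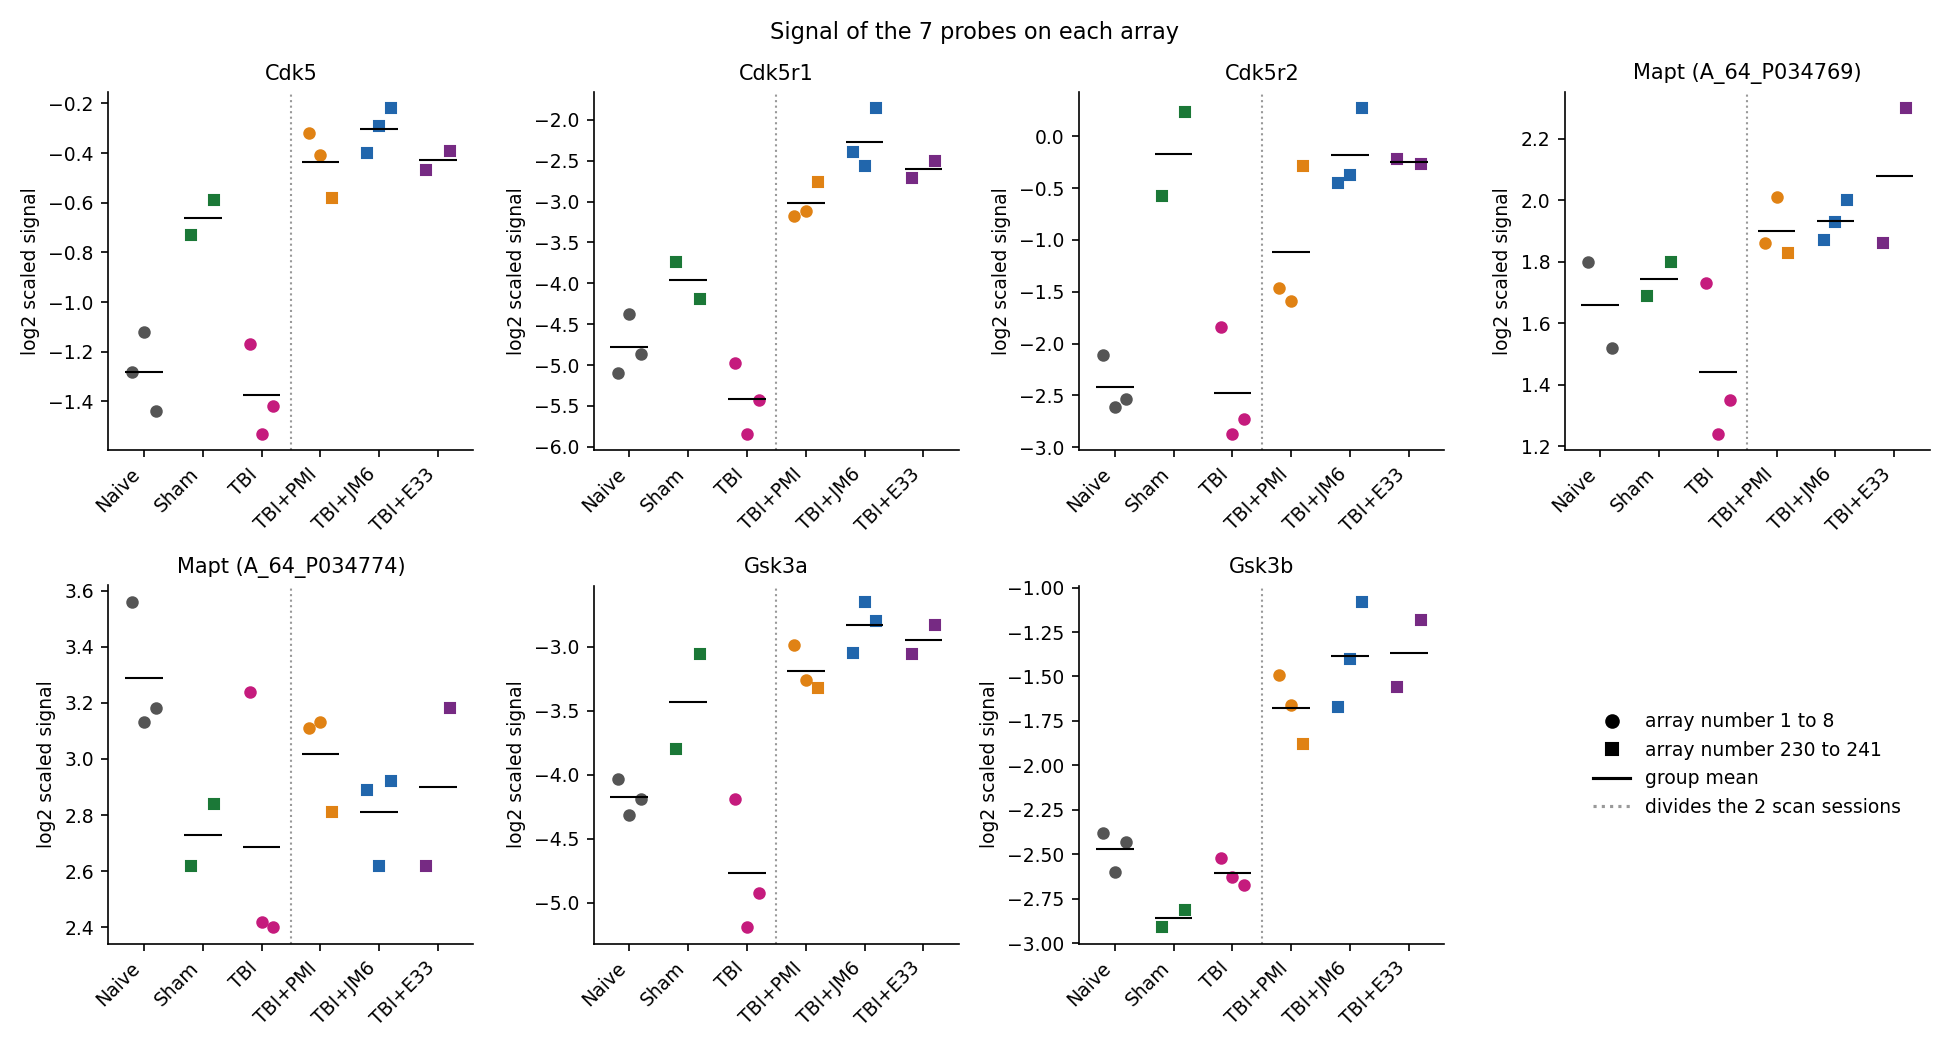
Log2 scaled signal (y axis) of the 7 probes on each of the 16 arrays by group (x axis), with the group mean as a line, circles for arrays numbered 1 to 8 and squares for 230 or above, and a dotted line between the scan sessions. The Cdk5r1 mean is lowest in TBI (-5.41) and highest in TBI+JM6 (-2.27), Cdk5r2 separates circles from squares, and both Mapt probes stay within a range of 1.16 or less.

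The comparison of TBI with Sham asks what the injury adds to the surgery. These groups lay on different slides and in different array number ranges, so between them injury, slide and number range cannot be told apart. Of the 7 probes, 4 were lower in TBI and 0 higher (limma, adjusted p under 0.05), where 6.46% of all 22798 tested probes were lower, 2.92% higher and 9.38% called in either direction. Cdk5r2 was at 0.203 of its Sham level (log2 difference -2.30, SE 0.42, adjusted p = 0.00991), which is lower than in all but 0.5% of the tested probes. Cdk5r1 fell by 1.45 on the log2 scale (SE 0.30, adjusted p = 0.0150), Gsk3a by 1.34 (SE 0.29, adjusted p = 0.0169) and Cdk5 by 0.71 (SE 0.17, adjusted p = 0.0226). For these 4 every TBI array was below both Sham arrays, as was so for 24.2% of all probes. Gsk3b had a difference of 0.25 (95% interval -0.18 to 0.68), with every TBI array above both Sham arrays, as for 17.6% of all probes. The Mapt differences were -0.30 (-0.73 to 0.12) and -0.04 (-0.63 to 0.54), and their arrays overlapped. The median of the members was -0.71 and that of all probes -0.03.

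All 4 differences were negative under every alternative run, while their calls depended on the settings. None was called in a fit restricted to these 5 arrays (adjusted p from 0.135 to 0.207), where the differences are the same, or with the slide as a fixed block, where they were -0.47 for Cdk5, -1.32 for Cdk5r1, -2.13 for Cdk5r2 and -1.32 for Gsk3a. Only the Naive group lay on both slides of that session, so this slide effect rests on Naive 3 against Naive 1 and 2. With the slide as a random block all 4 were called, but this setting does not separate slide from group, as TBI and Sham share no slide. Its estimated correlation within slides was -0.088. Over all probes it called 1274 higher and 2553 lower, beside 666 and 1472 in the main fit. None was called with the array number range as a block (-0.93, -1.06, -1.07 and -1.54 in the same order) or after a normexp background correction (-0.58, -0.20, -1.91 and -0.22). Only TBI+PMI held both number ranges, so the number block rests on the arrays of that group. Without Sham 1 the calls of Cdk5 (adjusted p = 0.0779) and Cdk5r1 (0.104) were lost, without Sham 2 those of Cdk5 (0.124), Cdk5r2 (0.0690) and Gsk3a (0.132), and without TBI 2 or TBI 3 those of Cdk5, Cdk5r1 and Gsk3a (0.0536 to 0.0774). The TBI and Sham arrays lay on different slides, and markers of several cell types were lower in TBI. Of 10 neuron markers 3 were lower (Rbfox3, Snap25 and Thy1), with a list median of -0.63. Their summed signal was 36.5 to 43.9 in TBI and 47.8 to 51.7 in Sham. Oligodendrocyte markers were lower for 3 of 6 (median -1.02), hippocampal field markers for 2 of 8 (-0.8) and endothelial markers for 1 of 5 (-0.23). No astrocyte (-0.2), thalamus (-0.1) or choroid plexus marker (-3.13) was called. In Sham versus Naive 2 of 10 neuron markers were higher (median 0.44), and in TBI versus Naive 0 were called (-0.2). Rbfox3 was above background on no TBI array. Of 6 microglia markers 2 rose (Itgam and Cd68) and 0 fell, with a list median of 0.33, and of 7 blood and leukocyte markers 2 rose (S100a8 and S100a9) and 0 fell, with a median of 0.97. The part of these cell types in the result was not tested.

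Sham against Naive asks what anesthesia and surgery do without the injury, and it shares both Sham arrays with the comparison above. The Naive arrays were numbered 1 to 8, so within these groups surgery and number range cannot be told apart. Cdk5r2 was 4.73-fold higher in Sham (log2 difference 2.24, SE 0.42, adjusted p = 0.00910) and Cdk5 1.53-fold higher (0.61, SE 0.17, adjusted p = 0.0405). These were 2 of the 7 probes, where 6.55% of the 22783 tested probes were higher, 1.51% lower and 8.07% called. Cdk5r1 (0.81, adjusted p = 0.122) and Gsk3a (0.75, adjusted p = 0.134) were not called, although both Sham arrays were above all Naive arrays, as for 25.1% of all probes. Mapt A_64_P034774 (-0.56, adjusted p = 0.240) and Gsk3b (-0.38, adjusted p = 0.281) had both Sham arrays below the Naive arrays, as for 14.5% of all probes. On the slide that held 2 Naive and both Sham arrays, Cdk5r2 differed by 2.18 and Cdk5 by 0.53. Cdk5 was not called without Naive 1 (adjusted p = 0.0880), Naive 3 (0.126), Sham 1 (0.106) or Sham 2 (0.212), and Cdk5r2 not without Sham 2 (0.0871). With the array number range as a block Cdk5r2 was at 1.01 (adjusted p = 0.450).

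TBI against Naive called 0 of the 7 probes, where 4.71% of 22808 were called. The methods' t-test also passed 0, and by unadjusted limma p-values 3 were under 0.05, all lower in TBI: Mapt A_64_P034774 (-0.60, adjusted p = 0.175), Cdk5r1 (-0.63, adjusted p = 0.199) and Gsk3a (-0.59, adjusted p = 0.210). Cdk5r2 differed by -0.06 (95% interval -0.87 to 0.75) and Cdk5 by -0.10 (-0.42 to 0.22), and the arrays of the groups overlapped for all 7. Without TBI 1, the highest of the 3 TBI arrays for each of the 7 probes, Mapt A_64_P034774 (-0.88, adjusted p = 0.0258) and Gsk3a (-0.88, adjusted p = 0.0352) were called lower. Of 6 astrocyte markers, the filament gene Gfap was higher in TBI than in Naive (2.53, adjusted p = 0.00272) and Aldh1l1 lower (-0.80, adjusted p = 0.0476), and the list median was -0.32.

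**Figure D2:**
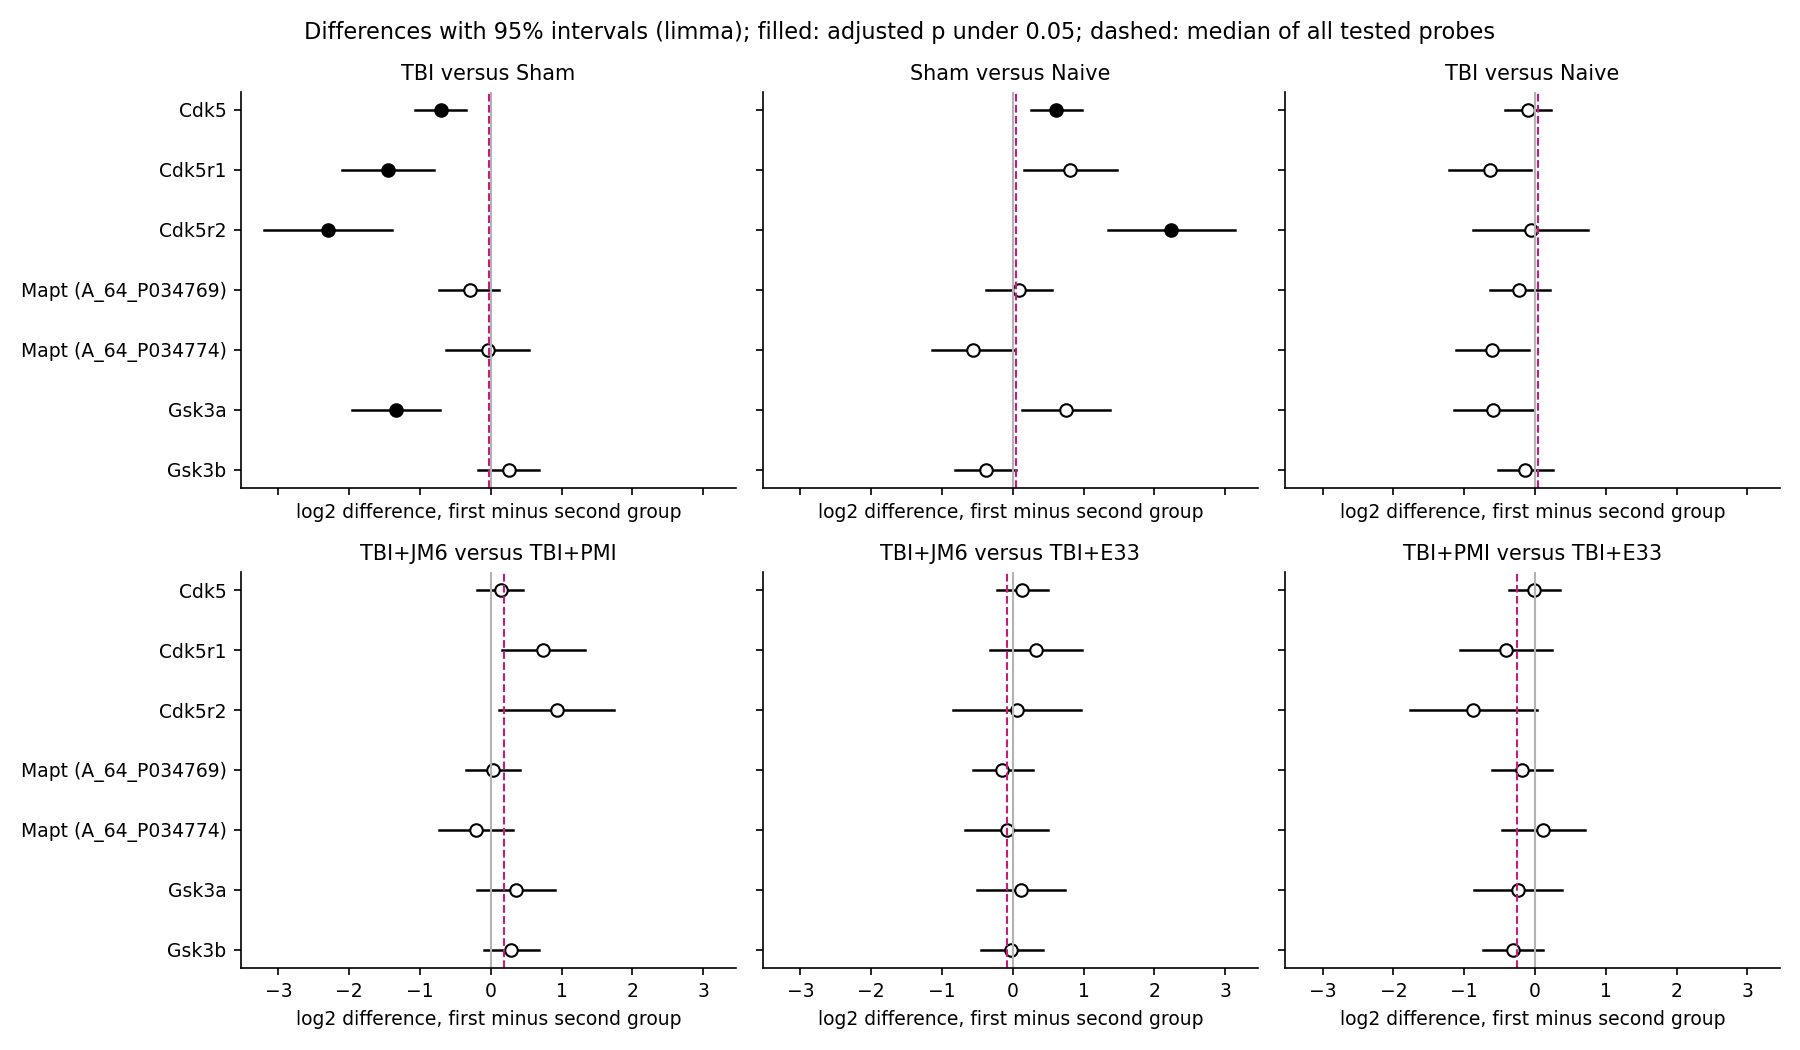
Log2 difference (x axis) of each probe (y axis) in the 6 tested comparisons, with 95% intervals from limma, filled points where the adjusted p was under 0.05, and a dashed line at the median of all tested probes. Filled points appear only for TBI versus Sham (4) and Sham versus Naive (2), and intervals for Cdk5r2 are the widest.

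In each drug group all 7 probes were above TBI on average, and 6 of 7 had no overlap with TBI. The scan sessions differ in the same way, the summed signal of the neuron markers was 47.7 to 58 in TBI+PMI, 61.1 to 64.5 in TBI+E33 and 53.8 to 75.5 in TBI+JM6 against 36.5 to 43.9 in TBI, and the median of all tested probes was also higher by 1.0 in TBI+JM6, 0.79 in TBI+PMI and 1.08 in TBI+E33. The part of these in the result was not tested. With this scaling, in the order TBI+JM6, TBI+PMI and TBI+E33, 70.1%, 56.7% and 70.3% of all probes were called, and 6 of 7 members lay among the probes that were higher with no overlap. Cdk5r1 had the largest difference of the 7 probes in each drug group: TBI+JM6 was 3.14 above TBI (SE 0.27), TBI+PMI 2.40 (SE 0.27) and TBI+E33 2.81 (SE 0.30), which is 2.14, 1.61 and 1.73 above the median of all probes. In the same order Cdk5r2 was 2.30, 1.37 and 2.24 above TBI, and 1.06, 0.96 and 1.01 above it with the array number range as a block. Gsk3a was 1.93, 1.58 and 1.82 above TBI. In this order, 95.2%, 90.3% and 87.8% of all tested probes had a smaller difference than Cdk5r1. For Cdk5r2 these shares were 84%, 71.6% and 79.5%, and for Gsk3a 77.4%, 76.7% and 71.8%. Gsk3b (1.22, 0.93 and 1.24) and Cdk5 (1.07, 0.94 and 0.94) were near the median of all probes. Mapt was below it, with 0.49, 0.46 and 0.64 for A_64_P034769 and 0.12, 0.33 and 0.21 for A_64_P034774. Only 7.2% of all probes had a smaller difference than the latter in TBI+JM6 versus TBI.

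With normexp background correction Cdk5r1 was at 1.74, 0.76 and 1.18 above TBI in the same order, below Cdk5r2 at 1.95, 1.13 and 1.93, so the order of these probes turned. The Cdk5r1 intensity in TBI was 22.8 to 45.4 before this correction, below its offset of 50, and the part of the offset in the turn was not tested. Other scalings took away most of the shift of the whole array and turned several members. Under quantile normalization the median of all probes was 0.00 in TBI+JM6 versus TBI, and Mapt A_64_P034774 was at -0.38. With scaling to the E1A control spots it was at -0.94, Cdk5 was at -0.35 in TBI+E33 versus TBI, and 3 of 7 probes were above TBI in the TBI+PMI and TBI+E33 groups. Cdk5r1, Cdk5r2 and Gsk3a were above TBI in each drug group under every alternative run. Relative to the median of all probes, over the 6 settings compared, Cdk5r1 was 0.92 to 2.28 higher in TBI+JM6, 0.52 to 1.69 in TBI+PMI and 0.69 to 1.83 in TBI+E33. Cdk5r2 was 1.13 to 1.47, 0.55 to 0.89 and 1.11 to 1.44 higher. Gsk3a was 0.27 to 0.94, 0.21 to 0.79 and 0.02 to 0.74 higher. Mapt A_64_P034774 was below the median in TBI+JM6 (-0.92 to -0.38) and TBI+E33 (-0.91 to -0.31), and crossed it in TBI+PMI (-0.47 to 0.22).

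**Figure D3:**
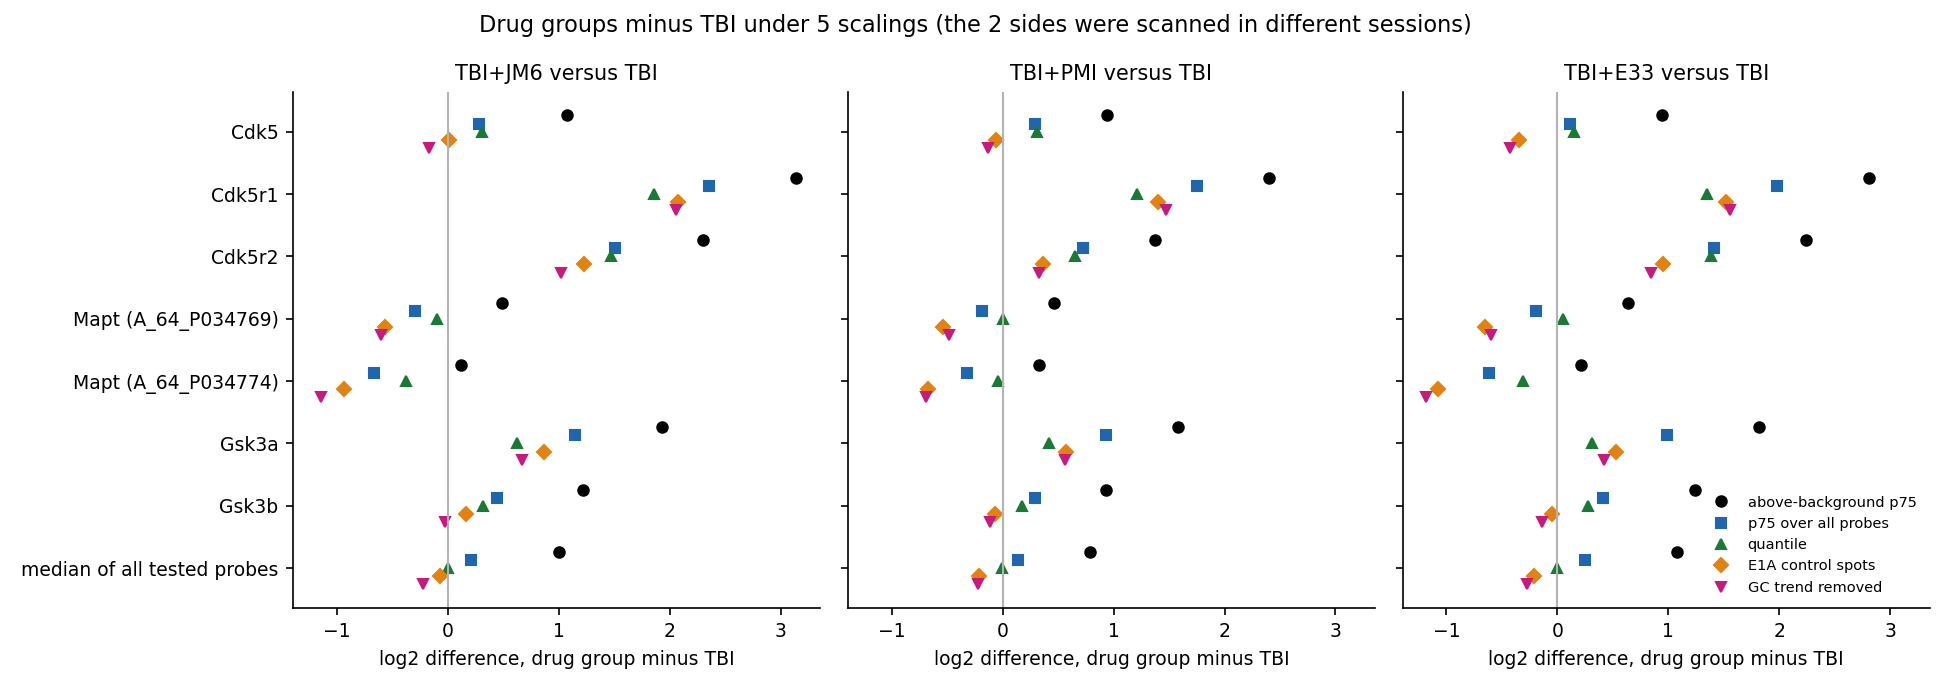
Log2 difference of each drug group minus TBI (x axis) for the 7 probes and the median of all tested probes (y axis) under 5 scalings, marked by symbol. Cdk5r1, Cdk5r2 and Gsk3a stay right of 0 throughout, the Mapt probes cross it, and the median moves from 1.0 to -0.22 in TBI+JM6 versus TBI.

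The drug groups were compared with each other within 1 scan session. TBI+JM6 against TBI+PMI called 0 of the 7 probes, where 0.0131% of 22826 were called, and 2 were under 0.05 by unadjusted limma p-values. Cdk5r1 was 0.74 higher in TBI+JM6 (95% interval 0.16 to 1.33, adjusted p = 0.459), with every TBI+JM6 array above every TBI+PMI array, as for 13.9% of all probes. Cdk5r2 was 0.93 higher (0.12 to 1.74, adjusted p = 0.502) and overlapped. Against TBI+PMI 3 alone, the array with a number in the TBI+JM6 range, Cdk5r2 was 0.11 and Cdk5r1 0.48 higher in TBI+JM6. TBI+JM6 against TBI+E33 called 0 (0.0175% of 22823 were called), as did TBI+PMI against TBI+E33 (0.110%), and no member was under 0.05 before adjustment in either. Every TBI+E33 array was above every TBI+PMI array for Cdk5r1 and Cdk5r2, as for 39.4% of all probes. For Cdk5r2 the intervals of these comparisons were -0.85 to 0.96 and -1.77 to 0.03, and for Cdk5r1 -0.32 to 0.98 and -1.06 to 0.24, so differences of about this size remain possible. Cdk5 had narrower intervals, of -0.19 to 0.46 for TBI+JM6 against TBI+PMI, -0.23 to 0.49 for TBI+JM6 against TBI+E33 and -0.37 to 0.35 for TBI+PMI against TBI+E33.

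Within TBI+PMI, the only group with arrays of both number ranges, TBI+PMI 3 (high range) exceeded the mean of TBI+PMI 1 and 2 (low range) by 1.23 for Cdk5r2 and 0.39 for Cdk5r1, and fell by 0.20 to 0.31 below it for Gsk3a, Gsk3b, Cdk5 and Mapt A_64_P034774. The median of all probes was -0.28, and 99.3% of tested probes had a smaller difference than Cdk5r2. Across 22121 probes this difference correlated with Sham minus Naive with Pearson's r of 0.21 and Spearman's rho of 0.18, and genes are not independent replicates. The 3 arrays include TBI+PMI 1, which is rich in choroid plexus markers. What the number stands for is not given, and its part in the Cdk5r2 result was not tested. For Cdk5r1 the number ranges overlapped over all 16 arrays but not within a scan session. Among the arrays without a drug the high range is only the Sham arrays, which were above all Naive arrays for 25.1% of all probes and above all TBI arrays for 24.2%. Among the drug arrays the low range is only TBI+PMI 1 and 2. The share of all probes that split by number was not computed. Among the Naive, Sham and TBI arrays the low range lay between -5.84 and -4.37 and the high range at -4.19 and -3.74, and among the drug arrays the low range lay at -3.18 and -3.11 and the high range between -2.76 and -1.86.

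**Figure D4:**
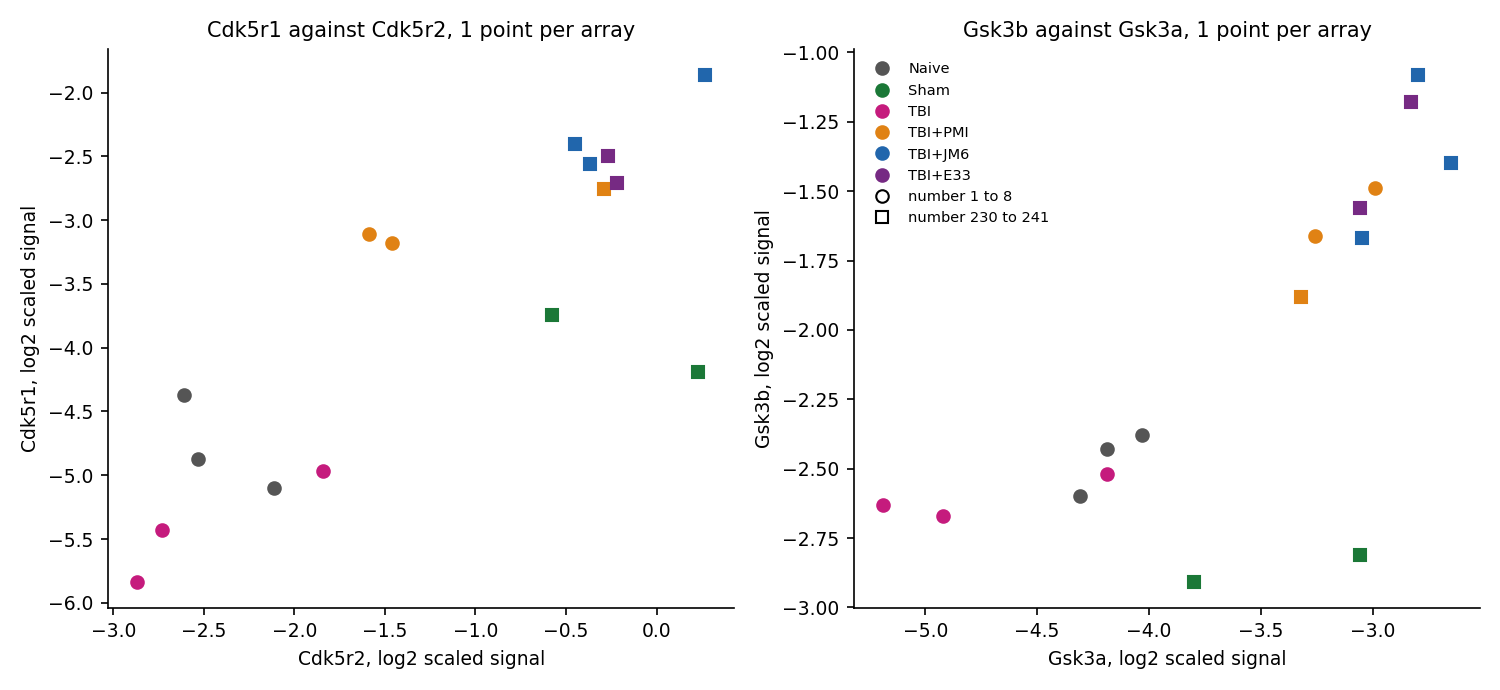
Cdk5r1 against Cdk5r2 (left) and Gsk3b against Gsk3a (right), log2 scaled signal on both axes, 1 point per array, coloured by group, with circles for arrays numbered 1 to 8 and squares for 230 or above. On the left the 8 circles lie at or below -1.46 and the 8 squares at or above -0.58 on the Cdk5r2 axis, and on the right both Sham arrays have the lowest Gsk3b signal.

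Other genes of the pathway were read from 5 lists with 92 tested genes. In TBI versus Sham 12 of 92 (13%) were lower and 0 higher, and in Sham versus Naive 12 were higher and 0 lower, with the Sham arrays shared. Over all tested probes 6.46% were lower and 2.92% higher in the former comparison, and 6.55% higher and 1.51% lower in the latter. The calls of the list genes in TBI versus Sham carry the limit given for the members: the 2138 calls over the whole array became 5 higher and 5 lower on the compared groups alone, 3 higher and 1 lower with normexp, and 0 higher and 2 lower with the array number block. Among CDK5 regulators and partners (18 tested), the vesicle proteins Dnm1, which drives endocytosis, and Syn1, which tethers vesicles, were the 2 lower genes in TBI versus Sham (-1.17, adjusted p = 0.0340, and -1.34, adjusted p = 0.0410). In Sham versus Naive Dnm1 (1.09), Syn1 (1.32, named after its value was seen) and Cables2 were called higher. Cables2, and Dvl3 of the GSK3 list, were well above background on 1 of the 2 Sham arrays and on no Naive array. They give no fold and no sure rise, although both are among the 12 higher genes. The calpain Capn2, which can cleave p35, and Cast, the calpain inhibitor, both named later, were not called, at 0.83 (adjusted p = 0.0863) and 0.89 (adjusted p = 0.0738) in TBI versus Sham. For both, all TBI arrays were above both Sham arrays, as for 17.6% of all probes. The calpain Capn1, also named later, was at 0.07 (adjusted p = 0.923), and its arrays overlapped.

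Of 27 other tau kinases tested, 4 were lower in TBI than in Sham. Prkacb, a catalytic subunit of protein kinase A, differed by -1.50 (adjusted p = 0.0188), Brsk1 by -1.38 (0.0257) and, named after their values were seen, Brsk2 by -1.53 and the stress kinase Mapk9 by -0.73. In Sham versus Naive Prkacb (1.51) and Mapk9 (1.02) were among the higher genes of this list. The list median was -0.44 in TBI versus Sham, beside -0.03 for all probes. Cdk1, the mitotic kinase, was 2.74 higher in TBI than in Naive (adjusted p = 0.0279), and cyclin D1 (Ccnd1) 1.24 higher (adjusted p = 0.0293).

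Among 19 tau phosphatase genes 3 were lower in TBI than in Sham. The calcineurin subunit Ppp3r1 differed by -1.98 (adjusted p = 0.00717) and Ppp5c, which dephosphorylates tau, by -1.47 (0.00581). The PP2A subunit Ppp2r2c, named after its value was seen, differed by -2.80 and was above background on 1 of 3 TBI arrays. The same 3 were higher in Sham than in Naive, by 2.27, 1.31 and 2.78. Of 12 genes around GSK3, Akt2 was lower in TBI (-1.17, adjusted p = 0.0354), and Ctnnb1, which encodes the GSK3 target beta-catenin, was higher in Sham than in Naive (0.73, adjusted p = 0.0492). Of 16 microtubule genes, the kinesin Kif5c (-1.50, adjusted p = 0.00520) and Stmn4 (-2.05, adjusted p = 0.0126) were lower in TBI than in Sham, and Dcx, a marker of immature neurons, was lower in TBI than in Naive (-0.72, adjusted p = 0.0330). No gene of the 5 lists was called between drug groups.

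The probes most like a member were ranked by the lower of the 2 Pearson correlations within the scan sessions (8 arrays each) over 14289 probes. For Cdk5r1 these included Dlg3 (0.910 among drug arrays and 0.939 among the others) and Pgbd5 (0.909 and 0.897). Dlg3 encodes a synaptic scaffold and Pgbd5 a transposase-derived protein. For Cdk5 they were Paip2 (0.944 and 0.970), Rpp14 (0.939 and 0.975) and Cry2 (0.927 and 0.925). For Mapt A_64_P034774 they were the transcription factor gene Tcf4 (0.981 and 0.891), a transcript with no gene symbol, and the deubiquitinase gene Usp2 (0.822 and 0.877). Within the members, Cdk5r1 and Cdk5r2 correlated with 0.88 among drug arrays and 0.75 among the others, and Cdk5 and Cdk5r2 with 0.08 and 0.94. The probes of an array share its scaling, so these are descriptions.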

How the data were processed

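The authors deposited 1 Agilent Feature Extraction 9.5.3.1 file per array, with the processed intensity of each spot (background subtracted and detrended within the array), and a table of ratios to the 75th percentile, which was used as an alternative. Probe positions are those of rn4. RNA had been amplified with RiboAmp HS or MessageAMP II, and which rat had which is not given in the sources used here.

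Of 42877 non-control spots, those of one probe were averaged (intensity scale), leaving out spots marked as non-uniform or population outliers, divided by the 75th percentile of the probes well above background on the array, and log2 was taken. Probes above background on all arrays of at least 1 group (22826) were tested in a single limma fit of 6 group means to all 16 arrays, two-sided, with 10 residual degrees of freedom and Benjamini-Hochberg adjustment over all tested probes, with calls at an adjusted p under 0.05. P-values measure the spread between rats, and the small number of arrays limits the precision. The model was tested on simulated data. R 4.3.3, limma 3.58.1, Python 3.11.15 and matplotlib 3.10.9 were used.

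The members, gene lists and tests were chosen with earlier results of these data known. Genes named from a list are at most 2 per list and comparison, those called with the lowest adjusted p and no overlap, each by its brightest tested probe, and others are marked as named later. Some genes that this rule or the ranking by likeness reached are not reported here. Alternatives were normexp background correction (offset 50), quantile normalization, scaling to the percentile of every probe, E1A control spots, other filters on dim probes, the authors' table, removal of a GC trend, the methods' t-test, the compared groups alone, slide and replicate blocks, and each rat left out. The array number as a block, all spots kept, and TBI+PMI 3 alone were added after seeing the data.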

Additional observations from a re-analysis of the deposited data

How the results depend on the processing

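Of the 7 probes, 4 were called in TBI versus Sham, and 0 with a normexp background correction, on the compared groups alone, with the slide as a fixed block, with the methods' t-test after adjustment (3 at unadjusted p under 0.05 and a fold over 1.2) or with the array number range as a block, an alternative added after seeing the data, 2 with E1A scaling, and 3 in the authors' table, where Cdk5r1 was lost (-1.06, adjusted p = 0.0615), or over the probes above background on all 16 arrays, which leave out Cdk5r1. In Sham versus Naive 2 were called, 0 with normexp, the slide as a fixed block, the adjusted t-test or the array number block, and 1 under quantile normalization, E1A scaling, no filter, the authors' table, removal of the GC trend or the compared groups alone. With the slide as a random block, where the estimated correlation within slides was -0.088, 4 and 2 were called. In TBI+JM6 versus TBI+PMI the unadjusted t-test passed 1 probe. With each rat left out in turn the count was 1 to 4 in TBI versus Sham, 0 to 2 in Sham versus Naive, 0 to 2 in TBI versus Naive and 0 between drug groups, and a group left with 1 array was assumed to vary like the others. Same-numbered replicates did not deviate together (median r 0.02, from -0.19 to 0.18), so the numbers give no pairing. With the replicate block 1 probe was called in Sham versus Naive, as Cdk5 (0.58, adjusted p = 0.0775) was lost, and no other call of a member changed.

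The other alternatives that turned values concern the drug groups against TBI, given for TBI+JM6, TBI+PMI and TBI+E33 in turn. With E1A scaling 3 of 7 probes were above TBI in TBI+PMI and TBI+E33, and with the GC trend removed 3 of 7 in each drug group. Mapt A_64_P034774 was -0.38, -0.04 and -0.31 under quantile normalization, -0.67, -0.32 and -0.62 with the percentile over all probes, -0.94, -0.67 and -1.08 with E1A scaling, -0.37, -0.02 and -0.30 in the authors' table, and -1.14, -0.69 and -1.18 without the GC trend. Mapt A_64_P034769 was -0.10 in TBI+JM6 under quantile normalization and -0.09 in the authors' table, -0.30, -0.19 and -0.19 with the percentile over all probes, -0.57, -0.54 and -0.65 with E1A scaling, and -0.60, -0.48 and -0.60 without the GC trend. Cdk5 was -0.06 in TBI+PMI and -0.35 in TBI+E33 with E1A scaling, and -0.17, -0.13 and -0.43 without the GC trend. Gsk3b was -0.07 in TBI+PMI and -0.05 in TBI+E33 with E1A scaling, and -0.03, -0.11 and -0.14 without the GC trend. With a rat left out, Mapt A_64_P034774 ranged from -0.02 to 0.40 in TBI+JM6 and from -0.07 to 0.49 in TBI+E33. The cause of these changes was not tested. Cdk5r1 and Gsk3a lie near background, which limits their precision.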
